A study of Mus musculus with 67 samples.

Results

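The subcortical maternal complex is a protein assembly beneath the membrane of the egg and of the cells of the early embryo. Its subunits are made from RNAs that the oocyte stores, and mouse females that lack Nlrp5, Tle6, Ooep or Padi6 make eggs whose embryos stop at the first cleavages. Nlrp5 (also called MATER), Tle6 and Ooep (FLOPED) form its core, Khdc3 (FILIA) is a further subunit, Padi6 belongs to the cytoplasmic lattices, Zbed3 joins the complex and bears on the position of the spindle, and Nlrp2 and Nlrp4f are NLRP proteins of the oocyte found with it. Most stored RNAs of the mouse egg are lost around the 2-cell stage, when the embryo starts to transcribe its own genome.

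These 8 genes were taken by symbol from the 26414 genes of the expression table, which held a row for each of them. The table came from 67 SMART-seq2 libraries of C57BL/6 embryos, each made from a single cell of a dissociated embryo and labelled with an embryo number. Embryos were made by in vitro fertilization from 6-week-old females and 10-week-old males. Light embryos (34 libraries) were exposed at the 2-cell stage to 5000 lx for 6 h and then kept in the dark, and control embryos (33 libraries) had 0 lx. There were 7 control and 6 light 2-cell libraries, 6 and 8 from 4-cell embryos, 4 and 8 from 8-cell embryos, 13 and 6 from morulae, and 3 and 6 from blastocysts. The labels do not say which cells share an embryo, so p-values measure only the spread between these libraries. Summed reads of Ddx3y, Eif2s3y, Uty, Kdm5d and Usp9y, genes of the Y chromosome, reached 10 CPM outside the dominant pair of genes described next in 3 of 7 control and 2 of 6 light 2-cell libraries, 4 of 6 and 8 of 8 at the 4-cell stage, 0 of 4 and 3 of 8 at the 8-cell stage, 0 of 13 and 1 of 6 in morulae, and 0 of 3 and 6 of 6 in blastocysts. The sex of the embryos and the exposure therefore cannot be told apart in blastocysts, and at the other stages, and in the steps between stages, the part of sex in the differences was not tested.

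A level is the deposited value, the reads of a gene divided by the size factor of its library, not divided by gene length. Libraries held 836011 to 8551674 reads, of which 54.0% to 89.3% belonged to the pair of genes CT010467.1 and Gm42418, and 318177 to 2867034 reads remained outside this pair. The mean ratio of Gm42418 to CT010467.1 reads was higher in control than in light libraries at the first 4 stages (3.00 against 1.65, 2.70 against 1.54, 2.21 against 1.63 and 3.22 against 1.55) and 1.43 in both at the blastocyst stage, so that what moves this ratio and the light exposure cannot be told apart before the blastocyst. Control 4-cell library 3 correlated better with the light libraries (median r of 0.844) than with the other control libraries (0.788). Control 4-cell libraries 2 (0.737 against 0.732), 4 (0.791 against 0.788) and 6 (0.793 against 0.791) did so by less. Less of an RNA in a cell and more of all other RNAs cannot be told apart in these values. Stages were checked on marker genes. The summed level of 7 transient 2-cell genes was 325 to 782 in control and 57.4 to 1785 in light 2-cell libraries, that of 6 trophectoderm genes was 368 to 5427 and 2535 to 6795 in blastocyst libraries, and that of the genes of cumulus cells, which surround the egg, was 0 to 11.6 over all libraries. In the control 8-cell libraries the transient 2-cell genes were higher (36.3 to 264) than in the control 4-cell libraries (0.852 to 6.57). The part of this in the control steps to and from the 8-cell stage was not tested.

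The promoters of the 8 genes in the RefSeq table (GRCm38.p6, 250 bases before to 50 bases after each listed start) were searched on both strands for the E-box CANNTG, which basic helix-loop-helix factors such as FIGLA of the oocyte bind, for TATAAA and for TAATTG, the element of the oocyte factor NOBOX. An E-box lay in 11 of the 12 listed windows, from 7 of the 8 genes, and in 72.3% of the 32851 windows of the whole table. TATAAA lay in 2 of the 12 (Nlrp5 and Zbed3) and in 13.6% of all, and TAATTG in 2 of the 12 (Ooep and Padi6) and in 8.00% of all. None of the motifs lay in the window of Nlrp2. The 4 windows shown belong to genes with 1 listed start and with different courses of RNA: Khdc3, which rose after the 2-cell stage, Ooep, which fell and was present again in blastocysts, Padi6, which fell between several stages, and Nlrp4f, which was lower in light at the 2-cell stage. They are written in the direction of transcription with motif matches in capitals. An E-box reads the same on both strands and was counted once.
Khdc3, chr9:73102148-73102447, plus strand: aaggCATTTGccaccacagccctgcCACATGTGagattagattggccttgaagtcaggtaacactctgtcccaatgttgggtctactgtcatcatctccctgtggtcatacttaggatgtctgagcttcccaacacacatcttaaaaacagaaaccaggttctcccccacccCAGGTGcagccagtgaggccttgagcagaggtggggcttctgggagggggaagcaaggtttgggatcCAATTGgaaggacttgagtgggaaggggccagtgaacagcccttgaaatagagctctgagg
Ooep, chr9:78378539-78378838, minus strand: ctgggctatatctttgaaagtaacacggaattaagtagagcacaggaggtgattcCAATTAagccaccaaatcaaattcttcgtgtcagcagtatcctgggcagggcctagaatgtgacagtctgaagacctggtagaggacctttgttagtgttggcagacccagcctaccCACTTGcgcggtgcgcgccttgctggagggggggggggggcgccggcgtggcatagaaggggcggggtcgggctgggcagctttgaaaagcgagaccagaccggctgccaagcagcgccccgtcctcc
Padi6, chr4:140742594-140742893, minus strand: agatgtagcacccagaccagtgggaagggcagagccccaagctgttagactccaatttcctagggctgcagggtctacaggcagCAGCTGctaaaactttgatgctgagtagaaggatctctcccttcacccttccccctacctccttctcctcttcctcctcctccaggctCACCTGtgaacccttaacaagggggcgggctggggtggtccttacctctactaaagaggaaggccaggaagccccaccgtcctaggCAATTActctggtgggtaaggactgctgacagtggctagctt
Nlrp4f, chr13:65205667-65205966, minus strand: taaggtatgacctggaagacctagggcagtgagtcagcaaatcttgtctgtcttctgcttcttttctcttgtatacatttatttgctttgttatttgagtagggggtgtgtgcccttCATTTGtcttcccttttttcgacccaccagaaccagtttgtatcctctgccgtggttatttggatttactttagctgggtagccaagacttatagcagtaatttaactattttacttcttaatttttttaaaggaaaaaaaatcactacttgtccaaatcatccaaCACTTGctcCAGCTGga
The Khdc3 window holds 5 E-boxes, of which 2 overlap, the Ooep window 1 E-box and 1 TAATTG, the Padi6 window 2 E-boxes and 1 TAATTG, and the Nlrp4f window 3 E-boxes. A match is a run of letters and not a bound site.

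In control 2-cell cells the 8 RNAs stood at very different levels. Per kb of annotated exon, Zbed3 had a level of 8504 ± 3711 (SD, n = 7), and its mean level per library was number 4 of all 26414 genes. It alone made up 1.46% ± 0.706 of the reads outside the dominant pair. Nlrp4f followed at 154 ± 80.7 per kb, Padi6 at 91.3 ± 25.1, Nlrp5 at 45.0 ± 15.2, Ooep at 29.1 ± 7.35, Tle6 at 13.8 ± 8.37 and Nlrp2 at 8.91 ± 3.54, and Khdc3 was last at 0.537 ± 0.734. The ranges over the 7 libraries did not overlap between Zbed3 and Nlrp4f, while every other pair of neighbours down to Tle6 and Nlrp2 overlapped, and Khdc3 lay apart below Nlrp2. In control morula libraries Khdc3 was first at 160.2 ± 59.9 per kb (n = 13), followed by Zbed3 at 25.8 ± 9.51 and Padi6 at 6.05 ± 7.13.

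**Figure D1:**
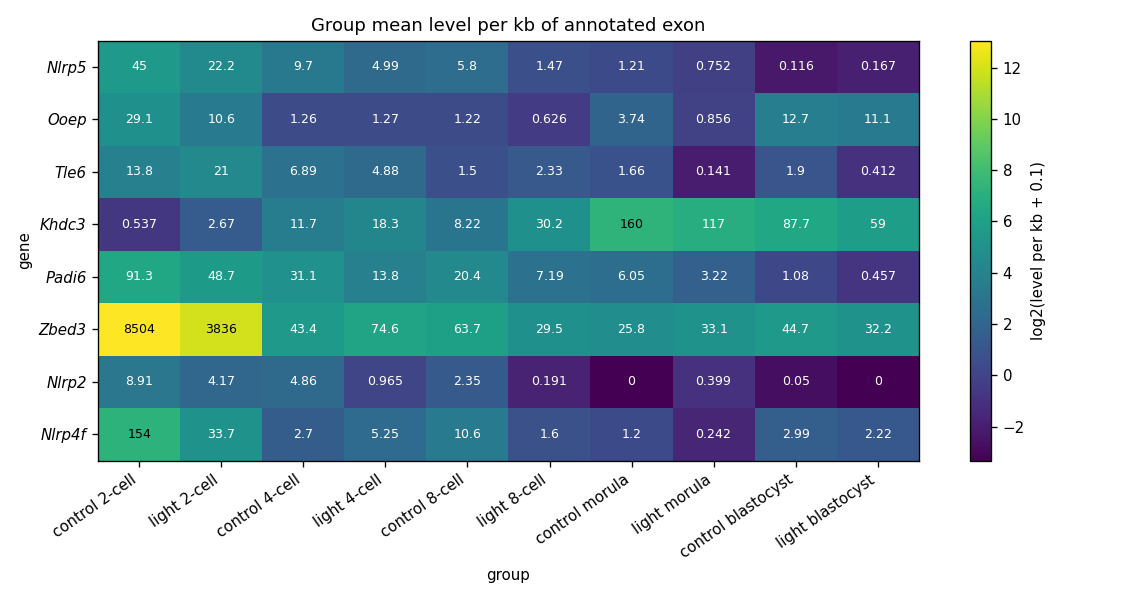
Group mean level of each gene per kb of annotated exon, with genes in rows, the 10 groups in columns and colour on the scale log2 of the level per kb plus 0.1. Zbed3 has the highest value of the map in control 2-cell libraries (8504), and Khdc3 goes from 0.537 there to 160 in control morulae.

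Part of the reads of some members could belong to other genes. Of the 50-base runs in its annotated transcripts (GENCODE M21), Khdc3 shares 42.8% with Gm20509, which overlaps it on the same strand, Nlrp5 shares 8.31% with Nlrp5-ps and Gm18757, Nlrp4f shares 5.85% with Nlrp4g and other copies, and Tle6 shares 1.44% with Gm9136. Ooep, Padi6, Zbed3 and Nlrp2 share none. Gm20509 has no row of its own in the expression table, so its part in the levels of Khdc3 cannot be told at any stage. Zbed3 holds the small nucleolar RNA Snora47, whose mean level was 6.24 in control 2-cell libraries against 18973 for Zbed3. Nlrp2 overlaps Gm5065 on the opposite strand (mean 6.95 in control 2-cell libraries against 31.2 for Nlrp2), and whether counting used strand is not given in the sources used here.

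**Figure D2:**
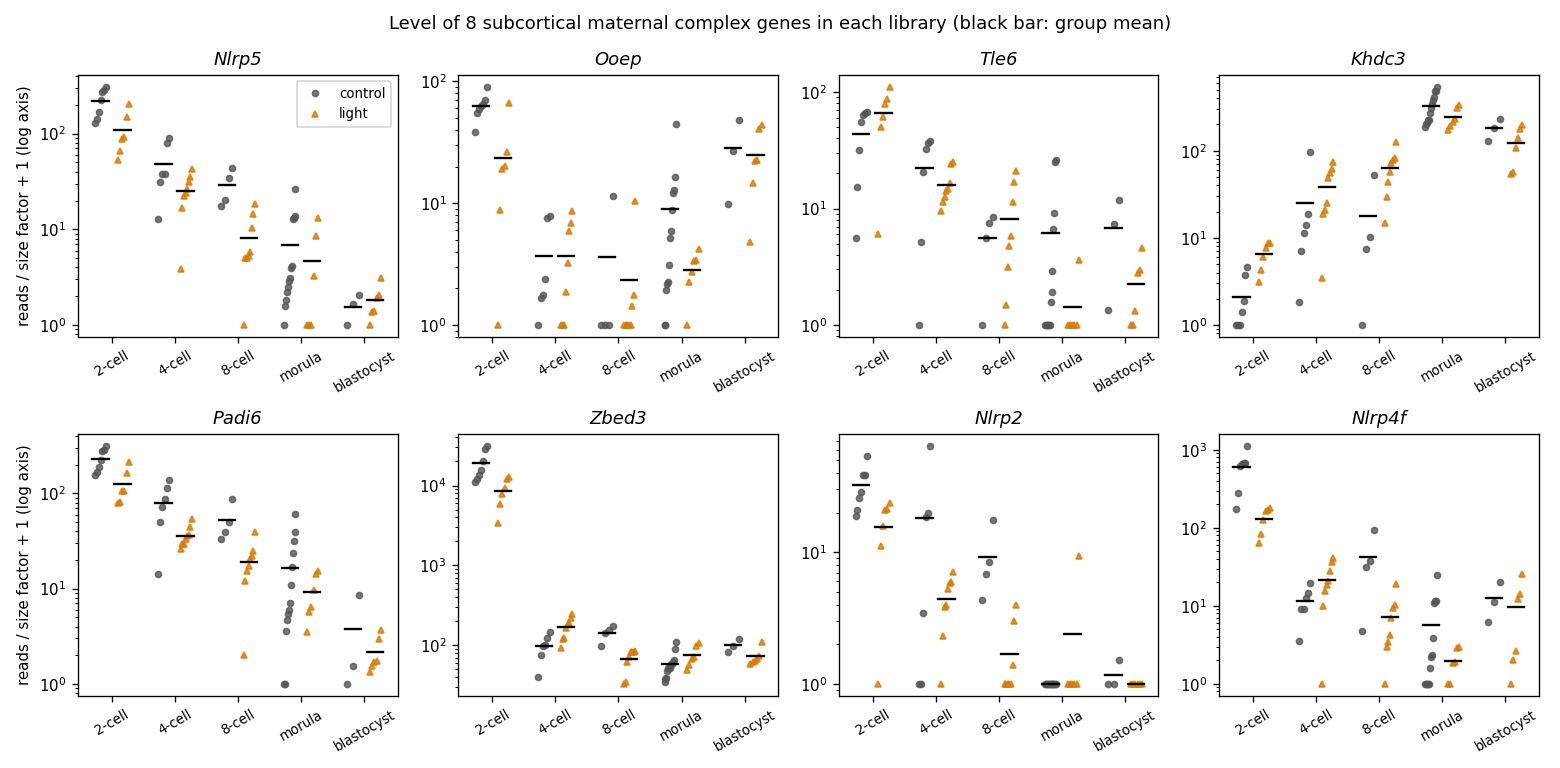
Level of each gene (reads divided by size factor, plus 1, log axis) in every library by stage, with control libraries as grey circles, light libraries as orange triangles and the group mean as a black bar. Zbed3 goes from a mean of 18973 in control 2-cell to 96.8 in control 4-cell libraries, and Khdc3 from 1.10 in control 2-cell libraries to 328 in control morulae.

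The step from the 2-cell to the 4-cell stage was compared within control and within light to follow the loss of maternal RNA. In control, 6 of the 8 RNAs fell and Khdc3 rose, beside 31.2% of 20395 tested genes called lower and 13.7% called higher. A gene was called at a Benjamini-Hochberg adjusted p under 0.05 over all genes tested and a fold change of at least 2, by limma on log2 of the level plus 1. The median log2 change of the 8 genes was -2.29, against -0.54 over all genes tested. In light, 5 fell and Khdc3 rose, beside 21.6% of genes called lower and 4.82% called higher, with medians of -1.96 and -0.44. Where groups are said below not to overlap, the share of all genes tested without overlap was not counted.

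Of the core subunits, Nlrp5 and Ooep fell in both arms. Nlrp5, listed from low to high like all values that follow, was at 129, 140.0, 166, 224, 275, 286 and 308 in control 2-cell libraries and at 11.8, 30.1, 36.9, 36.9, 78.4 and 88.0 in control 4-cell libraries, so that the groups did not overlap. The log2 change was -2.38 ± 0.49 (SE, adjusted p = 0.000113). In light, Nlrp5 went from a range of 51.8 to 202 (median 88.6) to one of 2.83 to 41.5 (median 24.1), with a log2 change of -2.20 ± 0.48 (adjusted p = 0.000485). Ooep, a KH-like protein, went in control from 37.7, 54.2, 58.2, 62.1, 64.7, 69.1 and 89.5 to 0, 0.655, 0.760, 1.37, 6.57 and 6.84, also without overlap (-4.50 ± 0.76, adjusted p = 5.74e-06). Its control 4-cell mean was 4.34% of the 2-cell mean. In light Ooep went from a range of 0 to 65.1 (median 18.7) to one of 0 to 7.71 (median 1.55) (-2.36 ± 0.74, adjusted p = 0.0140), a call that was lost at a pseudocount of 0.1 (adjusted p = 0.0516).

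Tle6, a protein of the Groucho family, did not pass at this step. It was at 4.60, 14.3, 31.0, 53.9, 62.5, 65.6 and 66.5 in control 2-cell and at 0, 4.18, 19.6, 31.2, 35.5 and 37.1 in control 4-cell libraries, with overlapping groups (-1.35 ± 0.73, adjusted p = 0.129). In light it went from a range of 5.03 to 110.1 to one of 8.48 to 24.3 (-1.69 ± 0.71, adjusted p = 0.0718), a difference that edgeR (adjusted p = 0.0374) and DESeq2 (adjusted p = 0.0156) called. Padi6, a peptidylarginine deiminase without which the cytoplasmic lattices do not form, was at 156, 167, 188, 225, 277, 288 and 317 in control 2-cell and at 13.3, 49.4, 71.0, 87.1, 113 and 139 in control 4-cell libraries, and the groups did not overlap. It fell by a similar amount in control (-1.80 ± 0.41, adjusted p = 0.000461) and in light (-1.73 ± 0.40, adjusted p = 0.00105), where levels went from a range of 78.0 to 210.2 (median 105) to one of 25.0 to 52.5 (median 33.4).

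Zbed3, a BED-type zinc finger protein, showed the largest change of the 8. It was at 10921, 11934, 13723, 15693, 20114, 28727 and 31702 in control 2-cell libraries and at 39.2, 75.4, 97.7, 101, 124 and 144 in control 4-cell libraries. Every 2-cell library stood far above every 4-cell library (-7.60 ± 0.30, adjusted p = 7.08e-22), and the 4-cell mean was 0.510% of the 2-cell mean. In light Zbed3 went from a range of 3357 to 12931 (median 8621) to one of 90.6 to 246 (median 174) (-5.61 ± 0.30, adjusted p = 3.22e-17), with 1.94% of the mean remaining.

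Both NLRP members fell in control, of which Nlrp2 with less support. Nlrp4f was at 171, 277, 611, 649, 668, 677 and 1132 in control 2-cell and at 2.56, 7.98, 8.21, 11.7, 13.8 and 18.4 in control 4-cell libraries, without overlap (-5.67 ± 0.59, adjusted p = 3.68e-10). In light it went from a range of 63.6 to 180.2 (median 144) to one of 0 to 39.5 (median 18.6) (-3.04 ± 0.58, adjusted p = 8.83e-05). The 4-cell mean of Nlrp4f was 1.75% of the 2-cell mean in control and 15.6% in light. Its 2-cell means were 598 in control and 130 in light. Its 4-cell means, 10.4 in control and 20.3 in light, were not called different. Nlrp2 was at 17.7, 20.0, 24.8, 27.6, 37.7, 37.8 and 53.1 in control 2-cell and at 0, 0, 2.46, 17.6, 18.7 and 63.6 in control 4-cell libraries, of which the highest lay above all 2-cell libraries. Its log2 change of -2.20 ± 0.82 passed the test (adjusted p = 0.0255), but not without control 4-cell library 3 (-1.66, adjusted p = 0.0967), as CPM outside the dominant pair (-1.87, adjusted p = 0.0548), by edgeR (-0.74, adjusted p = 0.501) or by DESeq2 (-0.79, adjusted p = 0.433). With only the control 4-cell libraries whose ratio of Gm42418 to CT010467.1 reads was under 2, its fall was larger (-3.42 ± 0.82, adjusted p = 0.000873). In light Nlrp2 did not pass (-1.54 ± 0.79, adjusted p = 0.151).

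Khdc3, a KH domain protein with a role in genome stability, went the other way. It was at 0, 0, 0, 0.397, 0.869, 2.76 and 3.68 in control 2-cell libraries, from 10 reads in all, and at 0.852, 6.15, 10.5, 12.9, 17.6 and 96.0 in control 4-cell libraries. The lowest 4-cell library lay within the 2-cell range and the others above it (2.86 ± 0.75, adjusted p = 0.00177). In light Khdc3 went from a range of 2.10 to 7.84 (median 5.90) to one of 2.45 to 73.0 (median 36.1) (2.23 ± 0.73, adjusted p = 0.0186), which was lost at a pseudocount of 0.1 (adjusted p = 0.0851).

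**Figure D3:**
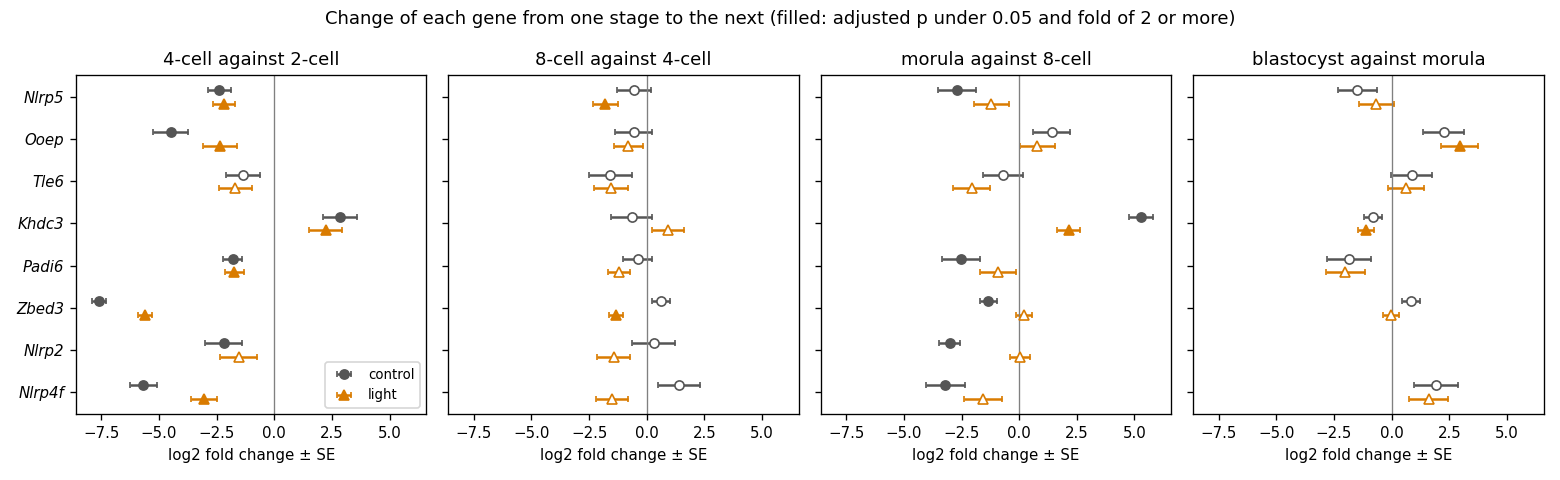
Log2 fold change of each gene between neighbouring stages with its standard error, from the limma fit, in control (grey circles) and light (orange triangles). Filled symbols passed the test, which at the first step were 7 genes in control and 6 in light, with Khdc3 as the one that rose.

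Whether the loss differed between the arms was tested by the difference of the changes, light minus control. Zbed3 was the one member called, beside 1.63% of genes called higher, with a difference of 1.99 ± 0.42 on the log2 scale (adjusted p = 0.00981). The difference was also called without control 4-cell library 3 (2.02 ± 0.44, adjusted p = 0.00687) and with only the control 4-cell libraries whose ratio of Gm42418 to CT010467.1 reads was under 2 (1.63 ± 0.41, adjusted p = 0.0198). It joins a lower level in light at the 2-cell stage to 4-cell levels that were not called different. For Nlrp4f the difference was 2.63 ± 0.83 (adjusted p = 0.0692), and it passed with median ratio scaling (adjusted p = 0.0396), in edgeR (adjusted p = 0.00190) and in DESeq2 (adjusted p = 2.74e-05). That of Ooep was 2.13 ± 1.06 (adjusted p = 0.270), and those of the other 5 genes lay between -0.63 and 0.66.

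Related genes were followed through the same step. Of 9 further NLRP genes of the oocyte (Nlrp4a, Nlrp4b, Nlrp4c, Nlrp4e, Nlrp4g, Nlrp9a, Nlrp9b, Nlrp9c and Nlrp14), 8 fell in control and 8 in light, with median log2 changes of -5.42 and -3.01. Nlrp9c fell in control (-7.23 ± 0.43, adjusted p = 1.84e-16) and in light (-2.94 ± 0.42, adjusted p = 1.05e-06), and it was the one gene of this list whose change differed between the arms (4.29 ± 0.60, adjusted p = 0.000270). Of 4 KH domain genes beside Khdc3 and Ooep, 3 fell in control, led by Khdc1b (-5.48 ± 0.35, adjusted p = 9.66e-16), and Dppa5a, a marker of pluripotent cells, rose (3.08 ± 0.59, adjusted p = 4.03e-05), while 3 fell and none rose in light. Of 8 genes of the lattice and of binding partners, among them 14-3-3 proteins, 5 fell in control and 4 in light, with Ywhaz first in control (-3.17 ± 0.31, adjusted p = 7.16e-11), and 2 differed between the arms (Ywhaz and Ywhag). Of 26 other maternal RNAs, 25 were tested, of which 21 fell in control and 20 in light, with medians of -4.04 and -2.90. Btg4, which helps to clear maternal RNA, fell in control (-7.66 ± 0.41, adjusted p = 7.28e-18) and in light (-4.45 ± 0.40, adjusted p = 6.20e-11). For 6 of these RNAs, Btg4, Bcl2l10 and Bmp15 among them, the fall was called smaller in light. In this list 10 of 25 tested RNAs were lower in light at the 2-cell stage, Bcl2l10 and Bmp15 among them. At the 4-cell stage 0 of 23 tested were called between the arms. Nlrp14 stands in both the NLRP and the lattice list.

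Light and control libraries were then compared stage by stage. At the 2-cell stage 4 of the 8 RNAs were lower in light (Nlrp5, Ooep, Zbed3 and Nlrp4f) and none was called higher, beside 4.96% of 18532 tested genes called lower. The median log2 difference of the 8 genes was -1.13, against 0.00025 over all genes tested. Nlrp4f, with the control levels given above, was at 63.6, 82.1, 126, 163, 167 and 180.2 in light, so that 6 of the 7 control libraries lay above every light library (-2.07 ± 0.36, adjusted p = 0.000381). Zbed3 was at 3357, 5802, 7947, 9295, 12021 and 12931 in light, with 5 of the 7 control libraries above all of them (-1.17 ± 0.26, adjusted p = 0.00346). Without light 2-cell library 12 its fold was under 2 (-0.93, adjusted p = 0.0126).

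The differences of the core subunits were less stable. Ooep was at 0, 7.77, 18.2, 19.3, 25.2 and 65.1 in light, where 5 of the 6 libraries lay below every control library and 1 lay among them. Its difference of -2.19 ± 0.66 (adjusted p = 0.0283) was lost without light library 14, which had 0 (-1.44, adjusted p = 0.0790), without control library 10 (adjusted p = 0.0588), with no filter on low values (adjusted p = 0.0590), at a pseudocount of 0.1 (adjusted p = 0.0562) and by edgeR (adjusted p = 0.0813). Nlrp5 was at 51.8, 65.6, 86.7, 90.5, 148 and 202 in light (-1.10 ± 0.36, adjusted p = 0.0430), with overlapping groups. This call was lost with no filter (adjusted p = 0.0635) and without any one of control libraries 8, 9, 10 and 12 or light libraries 9, 10, 12 and 14 (adjusted p of 0.0565 to 0.116).

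The other 4 genes did not pass at this stage. Padi6 was at 78.0, 79.4, 105, 106, 161 and 210.2 in light, with 4 of the 6 libraries below every control library (-0.95 ± 0.33, adjusted p = 0.0559), and it passed without control library 24 (-1.04, adjusted p = 0.0477) or light library 15 (-1.12, adjusted p = 0.0228). Nlrp2 differed by -1.45 ± 0.69 (adjusted p = 0.178) and Tle6 by 0.57 ± 0.64 (adjusted p = 0.622). Khdc3 differed by 1.81 ± 0.71 (adjusted p = 0.0956), with 39 reads over the 6 light and 10 over the 7 control libraries. Of the 9 further NLRP genes 4 were lower in light, led by Nlrp4a (-2.18 ± 0.35, adjusted p = 0.000175) and Nlrp4e (-1.81 ± 0.37, adjusted p = 0.00177), of the 8 lattice genes 3 (Ywhag, Ywhaz and Nlrp14), and of the 25 tested other maternal RNAs 10, with none higher. Among the last were Bcl2l10 (-3.04 ± 0.32, adjusted p = 9.80e-07) and the oocyte growth factor Bmp15 (-2.19 ± 0.24, adjusted p = 1.00e-06). Of the KH domain genes Khdc1c was lower (-1.84 ± 0.41, adjusted p = 0.00361) and Dppa5a higher (1.62 ± 0.50, adjusted p = 0.0317).

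At the 4-cell stage none of the 8 genes was called by limma, edgeR or DESeq2, beside 1.45% of 15010 tested genes called in either direction by limma. At an unadjusted p under 0.05, 1 gene of the 8 passed in limma, 3 in edgeR and 3 in DESeq2. Of all 15010 genes, 2626 passed so in limma, 2726 in edgeR and 2701 in DESeq2. The gene in limma was Zbed3, at 90.6, 118, 124, 162, 186, 186, 218 and 246 in light, where 5 of the 8 libraries lay above every control library (0.81 ± 0.35, adjusted p = 0.221). Padi6 differed by -0.88 ± 0.47 (adjusted p = 0.336), and without control library 3 by more (-1.32 ± 0.39, adjusted p = 0.0513). With only the control libraries whose ratio of Gm42418 to CT010467.1 reads was under 2, the difference was smaller for Zbed3 (0.46 ± 0.33, adjusted p = 0.490) and about the same for Padi6 (-0.86 ± 0.51, adjusted p = 0.394). Of the lists, Nlrp9c (3.41 ± 0.67, adjusted p = 0.0143) and Khdc1b (1.78 ± 0.37, adjusted p = 0.0176) were higher in light, and no other listed gene was called.

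At the 8-cell stage 2 genes were lower in light (Zbed3 and Nlrp2) and Khdc3 was higher, beside 3.30% of 13861 tested genes called lower and 5.91% called higher. Ooep was above 1 in too few libraries to be tested. Zbed3 was at 97.5, 143, 155 and 172 in control and at 31.9, 33.5, 61.1, 70.5, 81.7, 81.8, 81.9 and 84.6 in light, so that the groups did not overlap (-1.16 ± 0.35, adjusted p = 0.0365). This call was lost with no filter (adjusted p = 0.0574) and without any one of control libraries 1, 2 and 4 or light libraries 10 and 11 (adjusted p of 0.0601 to 0.101).

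Nlrp2 was at 3.34, 5.80, 7.40 and 16.5 in control and at 0, 0, 0, 0, 0, 0.387, 1.99 and 2.99 in light. These groups did not overlap either (-2.51 ± 0.66, adjusted p = 0.0173), but the light group held 8 reads in all, and the call was lost by edgeR (adjusted p = 0.0974) and without control library 2 (adjusted p = 0.0522). How many of all genes tested had no overlap at this stage was not counted. Khdc3 was at 0, 6.39, 9.29 and 51.7 in control and at 14.0, 28.8, 42.9, 56.1, 71.2, 77.0, 80.9 and 124 in light, with 5 of the 8 light libraries above every control library. Its difference of 2.74 ± 0.73 (adjusted p = 0.0186) was lost without control library 1, which had 0 (1.74, adjusted p = 0.0859), with no filter (adjusted p = 0.0537), by edgeR (1.68, adjusted p = 0.178) and by DESeq2 (1.63, adjusted p = 0.117).

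Nlrp5, Padi6 and Nlrp4f had lower means in light at this stage without passing the test. Nlrp5 was at 16.7, 19.2, 33.7 and 43.0 in control and at 0 to 17.3 in light, with 7 of 8 below every control library (-2.14 ± 0.74, adjusted p = 0.0673). Padi6 was at 32.5, 37.9, 49.5 and 86.8 in control and at 0.997 to 38.7 in light, also with 7 of 8 below (-1.69 ± 0.63, adjusted p = 0.0898). Nlrp4f was at 3.75, 30.5, 36.0 and 93.2 in control and at 0 to 18.3 in light, with 4 of 8 below every control library (-2.36 ± 0.85, adjusted p = 0.0775). DESeq2 called all of them (adjusted p = 0.0195 for Nlrp5, 0.0295 for Padi6 and 0.00622 for Nlrp4f), edgeR called Nlrp4f (adjusted p = 0.0388), and limma called Nlrp4f without control library 4 (-3.19, adjusted p = 0.0203). Tle6 differed by 0.26 ± 0.91 (adjusted p = 0.892). The summed level of the transient 2-cell genes was 36.3 to 264 in control against 0.532 to 55.4 in light 8-cell libraries, and that of the trophectoderm genes 0 to 11.6 against 19.9 to 74.6, where Cdx2, Krt8, Krt7 and Elf5 were at 0 in all control libraries. The part of these markers in the differences was not tested. Of the lists, Nlrp4e (-2.66 ± 0.81, adjusted p = 0.0368) and Tcl1 (-2.14 ± 0.57, adjusted p = 0.0190) were lower and Dppa5a (1.21 ± 0.25, adjusted p = 0.00315) and Ywhaz (1.05 ± 0.29, adjusted p = 0.0216) higher in light.

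In morulae and blastocysts no gene of the complex was called between light and control by limma, edgeR or DESeq2, beside 1.18% of 15217 tested genes in morulae and 5.34% of 12743 in blastocysts by limma. At an unadjusted p under 0.05 none passed in limma or edgeR at either stage, while 1 passed in DESeq2 in morulae and 0 in blastocysts. Of all genes, 2335 passed so in limma, 2088 in edgeR and 1887 in DESeq2 in morulae, and 2963, 1706 and 1882 in blastocysts. Nlrp2 was too low to be tested at these stages. Khdc3 was at 187 to 541 (median 310.2) in the 13 control morula libraries and at 170.1 to 329 (median 223) in the 6 light morula libraries, with overlapping ranges (-0.40 ± 0.28, adjusted p = 0.522). Ooep was at 8.94, 25.7 and 46.9 in control and at 3.84, 13.6, 21.0, 21.6, 39.9 and 42.7 in light blastocysts (-0.23 ± 0.69, adjusted p = 0.873). The median log2 difference in blastocysts was -0.49 for the 7 tested members and -0.64 over all genes tested. The summed level of 6 inner cell mass genes was 275 to 1545 in control and 131 to 199 in light blastocyst libraries, and its part in these values was not tested.

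**Figure D4:**
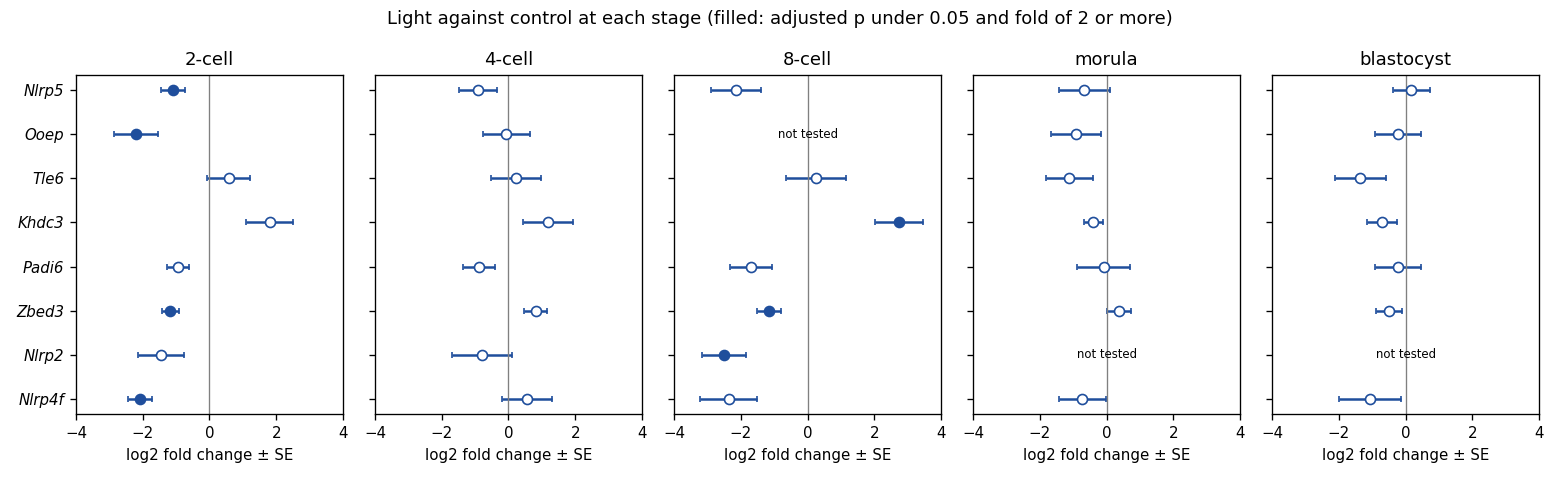
Log2 fold change of each gene in light against control at each stage with its standard error, from the limma fit, where filled circles passed the test. Passing genes are Nlrp5, Ooep, Zbed3 and Nlrp4f below 0 at the 2-cell stage, and Zbed3 and Nlrp2 below and Khdc3 above 0 at the 8-cell stage.

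From the 4-cell to the 8-cell stage none of the 8 genes was called in control by limma, beside 12.2% of 16987 genes called in either direction. At an unadjusted p under 0.05, 0 of the 8 passed, beside 4376 of the 16987 genes. Zbed3 differed by 0.63 ± 0.40 on the deposited scale (adjusted p = 0.332) and was called higher with median ratio scaling (1.44, adjusted p = 0.00965), as CPM outside the dominant pair (1.35, adjusted p = 0.0167), by edgeR (1.23, adjusted p = 0.0303) and by DESeq2 (1.39, adjusted p = 0.000378), which also called Nlrp4f (2.73, adjusted p = 0.00748). In light Nlrp5 (-1.79 ± 0.56, adjusted p = 0.0459) and Zbed3 (-1.34 ± 0.31, adjusted p = 0.00550) were called lower, beside 5.16% of genes. Both calls were lost with median ratio scaling (adjusted p = 0.348 and 0.243), as CPM outside the pair (0.305 and 0.195), by edgeR (0.283 and 0.180) and by DESeq2 (0.194 and 0.0905). On the deposited scale the median of all genes moved by -0.39 in control and -0.38 in light at this step.

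From the 8-cell stage to the morula 5 genes fell in control (Nlrp5, Padi6, Zbed3, Nlrp2 and Nlrp4f) and Khdc3 rose, beside 9.40% of 17431 genes called lower and 7.85% called higher. The lowest of the 13 control morula libraries for Khdc3, at 187, stood above the highest control 8-cell library, at 51.7 (5.28 ± 0.53, adjusted p = 1.22e-09). In light Khdc3 went from a range of 14.0 to 124 to one of 170.1 to 329, without overlap, and was the one gene called (2.14 ± 0.50, adjusted p = 0.00665), beside 1.88% of genes called higher, though not at a pseudocount of 0.1 (adjusted p = 0.0597). Nlrp2 had 0 reads in all 13 control morula libraries (-3.02 ± 0.46, adjusted p = 6.88e-06), which together held 13320149 reads outside the dominant pair. A count of 0 there allows up to 3 reads, or 0.225 CPM outside the pair. Pooled control 8-cell libraries held 13.0 CPM, so that Nlrp2 was at least 57.8-fold lower in control morulae, which covers counting error only. Control 8-cell library 2 held 31 of the 52 Nlrp2 reads, and without it the pool was at 7.94 CPM and the bound was 35.2-fold.

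The other genes that fell in control at this step were Nlrp5, Padi6, Nlrp4f and Zbed3, from the 8-cell levels given above. Nlrp5 in control morulae was at 0 to 25.3 (median 2.10) (-2.68 ± 0.82, adjusted p = 0.0185), Padi6 at 0 to 60.0 (median 6.10) (-2.52 ± 0.81, adjusted p = 0.0249) and Nlrp4f at 0 to 23.6 (median 1.18) (-3.20 ± 0.85, adjusted p = 0.00656). These calls rest on the 4 control 8-cell libraries. That of Nlrp5 was lost without library 3 (adjusted p = 0.0590) or 4 (adjusted p = 0.0759), that of Padi6 without library 2 (adjusted p = 0.0662) or 4 (adjusted p = 0.105), and that of Nlrp4f without library 2 (adjusted p = 0.0608). The calls of Nlrp5 and Padi6 were lost also at a pseudocount of 0.1 (adjusted p = 0.0861 and 0.0561) and by edgeR (0.0775 and 0.0939), and that of Padi6 by DESeq2 (0.0526). Zbed3 went from the 8-cell values above to a range of 34.1 to 109.6 (median 51.7) (-1.33 ± 0.36, adjusted p = 0.00712).

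In blastocysts Ooep was present again. In light it rose from 0, 1.26, 1.75, 2.36, 2.42 and 3.19 in morula libraries to the blastocyst levels given above, all 6 of which lay above every morula library (2.95 ± 0.81, adjusted p = 0.0150, beside 2.22% of 16855 genes called higher). In control it went from a range of 0 to 43.4 (median 4.20) in morulae to one of 8.94 to 46.9, which did not pass (2.26 ± 0.90, adjusted p = 0.0814) except with median ratio scaling (2.65, adjusted p = 0.0394). The mean level of Ooep was 23.8 ± 15.0 (n = 6) in light blastocysts and 22.6 ± 22.7 (n = 6) in light 2-cell libraries. As CPM outside the dominant pair these means were 59.1 ± 33.0 and 17.6 ± 16.1. The blastocyst mean of Nlrp4f was also higher, at 917% of the morula mean in light (10 and 132 reads) and 248% in control. Limma did not call Nlrp4f in light (1.60 ± 0.86, adjusted p = 0.280) or in control (1.94 ± 0.96, adjusted p = 0.170). DESeq2 called it higher in light (3.83, adjusted p = 0.0334), beside 1263 of 16855 genes called in either direction.

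No member was called in control at this last step by limma on the deposited scale, beside 16.2% of genes called in either direction. In this fit 3 members passed at an unadjusted p under 0.05, beside 4970 of 16855 genes. EdgeR called none, and Zbed3 was called higher by DESeq2 (1.15, adjusted p = 0.00333) and by limma with median ratio scaling (1.17, adjusted p = 0.0243). Khdc3 was called lower in light (-1.12 ± 0.35, adjusted p = 0.0345, beside 7.22% of genes), from a range of 170.1 to 329 to one of 53.2 to 196. This call was lost with median ratio scaling (-0.25, adjusted p = 0.719), as CPM outside the pair (-0.43, adjusted p = 0.492), by edgeR (-0.41, adjusted p = 0.491) and by DESeq2 (-0.26, adjusted p = 0.663). At the end of the course Nlrp5 was at 0 to 1.04 in control and 0 to 2.14 in light blastocysts, from 4 and 12 reads, and Padi6 at 0 to 7.65 and 0.320 to 2.70, from 23 and 17 reads. Nlrp2 had 1 read in control and 0 in light blastocysts. On the deposited scale the blastocyst means were 0.257% (control) and 0.752% (light) of the 2-cell means for Nlrp5, 1.18% and 0.938% for Padi6, and 0.525% and 0.838% for Zbed3. As CPM outside the dominant pair these shares were 0.447% and 2.17% for Nlrp5, 2.18% and 3.19% for Padi6, and 1.08% and 2.83% for Zbed3, so that the order of the arms changed for Padi6. Control blastocyst library 2 held 22 of the 23 Padi6 reads and 3 of the 4 Nlrp5 reads. Without it the control shares on the deposited scale were 0.114% for Padi6 and 0.147% for Nlrp5.

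The likeness of patterns was described by Pearson's r of log2 of the group mean plus 1 over the 10 groups, which share libraries between genes and are given with no test. Nlrp5 and Padi6 were the most alike of the members (r = 0.986), followed by Nlrp5 and Nlrp2 (0.940), and Khdc3 ran against Nlrp4f (-0.923), Nlrp2 (-0.913) and Nlrp5 (-0.909). The r of Khdc3 was below 0 with each of the other 7, of which that with Ooep was nearest to 0 (-0.351). The r of Ooep with the 6 remaining genes lay between 0.0443 (Padi6) and 0.640 (Zbed3). Among other genes, Nlrp14 was the closest to both Nlrp5 (0.993) and Padi6 (0.992), followed by Ppp4r2 and the histone chaperone Npm2 for Nlrp5 and by Rif1 and Taok1 for Padi6. Nlrp14 averaged 377 in control 2-cell, 61.5 in 4-cell, 41.0 in 8-cell, 10.6 in morula and 1.42 in blastocyst libraries. The closest to Zbed3 were Defb8 (0.995), Acot3 and Lbx1, which averaged 13.0, 55.9 and 153 in control 2-cell and 0.137, 0.272 and 0.441 in control 4-cell libraries.

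The closest to Nlrp4f were Mapkbp1 (0.991), Vwa2 and Nav3, to Tle6 the RNA exonuclease gene Xrn1 (0.978), B3galnt2 and Zbtb43, and to Nlrp2 Golga2 (0.972), Sos2 and Thsd4. Khdc3 was most like Fbp2 (0.977), a gluconeogenic enzyme, Ckmt1, a mitochondrial creatine kinase, and Slc28a3, a nucleoside transporter. Fbp2 averaged 2.00 in control 2-cell libraries and 330.3 in control morulae. Ooep was most like Tmem8b (0.975), Epb41l2 and Stat3, of which Stat3 averaged 164 in control 2-cell, 11.5 in 4-cell and 145 in blastocyst libraries. The mean profile of the 8 genes was most like E2f2 (0.994), Pkd2l2, Cabin1, Nus1, Wapl, Phf12, Tent4a, Tmod2, Kcnh1 and Ireb2.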

How the data were processed

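RNA of single embryo cells was amplified by SMART-seq2 and sequenced. The submitters' processing notes name HISAT2, HTSeq 0.9.1 and mm9. The study's methods call the deposited values RPKM, but they are a signal: in the deposited table each value of a library is a whole number of reads times 1 step per library (at least 99.97% of values within 0.01 of a whole read, 11 genes with a value that was not), with no division by gene length. Dividing by the step gave back the reads. All columns were mapped to a sample by name (0 were not). Groups and replicate numbers come from the labels, and the number of embryos behind each group is not given.

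At every stage light libraries were set against control libraries, and each stage against the one before it in a fit of 4 groups, by limma 3.58.1 (R 4.3.3, lmFit and eBayes with trend) on log2 of the value plus 1, over genes above 1 in at least 3 libraries, two-sided, with Benjamini-Hochberg adjustment over all genes tested. Calls needed a fold change of at least 2 and an adjusted p under 0.05. Fold changes on this scale understate those of low genes. Alternatives were median ratio scaling, CPM of the reads outside the dominant pair, a pseudocount of 0.1, no filter, edgeR 4.0.16 and DESeq2 1.42.0 on the recovered reads, the embryo number as a replicate block, leaving out each library (for light against control; for the steps between stages and the difference of the changes, control 4-cell library 3 and the libraries of groups of 5 or fewer), and, chosen after seeing the data, control 4-cell libraries with a ratio under 2 only, and shares and a bound without each library. Some of the fits were also run on simulated counts, drawn independently for each library, and the outcome is not reported here. The members, lists, markers and tests were chosen with earlier results of these data known. Text names the 8 members throughout, up to 3 genes per list with the smallest p in the comparison described, and the genes of most alike pattern. Nlrp9c, Dppa5a, Ywhaz and Btg4 are also named in comparisons beside the one that chose them. Exon lengths and shared 50-base runs are from GENCODE M21 (GRCm38), whose build differs from that of the counts, so they describe the annotation and not the counted models. The depth limits low genes, and floors of 3 reads cover counting error only.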

Additional observations from a re-analysis of the deposited data

Results flagged for a closer look

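Each group of 4 to 10 libraries was tested for 1 library that stood apart from the others (Dixon's test at 95%), and 12 of 64 such groups were flagged. The rate of about 1 in 20 by chance holds for continuous values. Some groups had all libraries, or all but 1, at 0, so the count cannot be set against that rate. No cause was tested. Lowest values that stood apart were those of Nlrp5 in light 4-cell library 14 (2.83, next 15.9) and light 8-cell library 12 (0, next 3.99), Tle6 in light 2-cell library 14 (5.03, next 49.5), Khdc3 in light 4-cell library 1 (2.45, next 17.6), Padi6 in light 8-cell library 11 (0.997, next 10.9), Nlrp2 in light 2-cell library 16 (0, next 10.1) and Nlrp4f in light 4-cell library 14 (0, next 8.82). Highest values that stood apart were those of Ooep in light 8-cell library 5 (9.51, next 0.774) and control 8-cell library 4 (10.4, next 0), Tle6 in light morula library 12 (2.62, next 0), Nlrp2 in light morula library 6 (8.40, next 0) and Zbed3 in light blastocyst library 15 (110, next 71.4).

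The change of Zbed3 from the 2-cell to the 4-cell stage differed between light and control by 1.99 on the log2 scale, by the interaction contrast in limma (adjusted p = 0.00981). In this contrast the 2-cell libraries of both arms differ in the ratio of Gm42418 to CT010467.1 reads (mean of 3.00 in control and 1.65 in light), so that the exposure and what moves this ratio cannot be told apart there.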

How the results depend on the processing

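Of 32 calls of members over the 14 comparisons, 18 were kept under every alternative besides the replicate block and the left-out libraries, and 16 also with each library left out that was tried, and 0 reversed. For the steps between stages these were control 4-cell library 3 and the libraries of groups of 5 or fewer, and the other libraries of the steps were not left out. All of those left out were control libraries, so the log2 changes of the steps in light stayed the same. For the steps in light, a call kept in these fits therefore does not show that it holds without a light library. Of 75 tested values that were not called, 20 changed sign under some alternative, left-out libraries not counted, and 24 with them counted. The cause of these changes was not tested. For light against control at the 2-cell stage, 4 members were called, beside 1944 of 18532 genes tested. With no filter 2 were, beside 1473 of 23975, and with 1 library left out 2 to 5. At the 8-cell stage 3 were called, beside 1276 of 13861 genes. With no filter 1 was, beside 898 of 20799, and by DESeq2 5, beside 1417 of 13861. With 1 library left out 1 to 3 were called there. Counts over all genes with 1 library left out are not given here for these 2 stages. The change from the 2-cell to the 4-cell stage differed between the arms for 1 member, beside 627 of 20395 genes. It differed for 2 with median ratio scaling, edgeR and DESeq2, beside 876 of 20661, 1094 of 20395 and 1628 of 20395. From the 4-cell to the 8-cell stage 0 were called in control, beside 2079 of 16987 genes. With median ratio scaling, CPM or edgeR 1 was, beside 1128 of 17558, 1136 of 17381 and 873 of 16987. DESeq2 called 2 there, beside 1288 of 16987. In light 2 were called, beside 921 of 16987. With median ratio scaling, CPM, edgeR or DESeq2 0 were, beside 84 of 17558, 105 of 17381, 50 of 16987 and 221 of 16987. With a pseudocount of 0.1 or no filter 1 was, beside 784 of 16987 and 751 of 22928. From the 8-cell stage to the morula 1 was called in light, beside 854 of 17431 genes. With a pseudocount of 0.1 it was 0, beside 653 of 17431. From the morula to the blastocyst 0 were called in control, beside 2730 of 16855 genes. There 2 were called with median ratio scaling and 1 by DESeq2, beside 3282 of 17865 and 2069 of 16855. In light 2 were called, beside 1591 of 16855. With median ratio scaling, CPM or edgeR 1 was, beside 1286 of 17865, 1288 of 18123 and 796 of 16855. DESeq2 lost Khdc3 and gained Nlrp4f in light, beside 1263 of 16855 genes called.

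Control and light libraries with the same embryo number were not more alike than others (r of deviations of -0.087 to 0.069, and no control library matched its own number best). This check on single cells cannot tell whether a number stands for a shared litter or batch, which the labels do not say. With the replicate block over the few shared numbers, 0 members and 0 of all genes tested were called at the 2-cell, 4-cell and morula stages. At the 2-cell stage the log2 differences under the block were -2.84 for Nlrp4f, -1.99 for Nlrp5, -1.77 for Ooep and -1.71 for Zbed3 (adjusted p of 0.105 to 0.139), and 4450 genes had an unadjusted p under 0.05. On the scale of CPM of the reads outside the dominant pair, 27 of the 80 group levels moved by over 1 SD.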
